A study of Mus musculus with 2 samples.

Results

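The genes of the NF-kB transcription factor family and of inhibitors and a cofactor of its pathway were described by their open chromatin in mouse spleen. The set was a list of 10 named genes out of 21938 protein-coding genes: Rela, Rel, Relb, Nfkb1, Nfkb2, Nfkbia, Nfkbib, Nfkbie, Bcl3 and Tnfaip3. Every deposited peak and footprint in the gene body widened by 20 kb was taken. The assay was DNase-seq, in which nuclei are cut with the enzyme DNase I and the cut ends are sequenced, so that exposed DNA gives many ends. The material was whole spleen of 14-day-old males of B6CASTF1/J, the F1 cross of a C57BL/6J and a CAST/EiJ parent. There was 1 group with 2 biological replicates and 1 library each, from 3 males in replicate 1 and 1 male in replicate 2, with the same donor entry for both. The labels name no treatment and no other group, so the values are descriptions of 2 libraries and no test between conditions could be made. In whole tissue, a site open in fewer cells and a site less open in each cell cannot be told apart.

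NF-kB dimers sit in the cytoplasm bound to inhibitor proteins of the IkB family until a receptor signal has the inhibitor phosphorylated and destroyed, after which the dimer enters the nucleus and binds short DNA sequences called kB sites. Rela, Rel and Relb carry the domains that activate transcription, while Nfkb1 and Nfkb2 are made as long precursors whose processed forms supply the DNA-binding partners. In lymphoid organs the family is known for the survival and maturation of B cells and for the response to microbial products, and several of its inhibitors are themselves induced by NF-kB, which limits the response.

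Peaks came from the stricter of the 2 peak lists deposited for each library, with 48286 peaks in replicate 1 and 28837 in replicate 2. Each peak carries 1 signal value, the authors' own, and the labels do not state its scale. The median was 1.49 in replicate 1 and 1.79 in replicate 2. Read depth is unknown, so no counting interval is given. Peaks of the 2 libraries that overlapped by at least 1 base were joined into 1 site. A site was called own promoter within 1000 bases of a start site of the member, other promoter within 1000 bases of a start of another protein-coding gene, and distal elsewhere. Of 6 B cell markers, 5 had a promoter peak in both libraries and so had 5 of 6 markers of red cell precursors, which the spleen of young mice still makes. Only 2 of 5 T cell markers and 2 of 5 macrophage markers had one, with no peak in either library at Cd3e, Spic and Csf1r. Of 4 genes of spleen stroma, Tlx1 and Nkx2-5 had none. Of 5 genes of other tissues, only the muscle gene Ckm had one in both, and Alb, Acta1 and Gad1 had none in either.

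Stretches with kB matches of 8 members are printed first, because the results below return to them. They hold 13 of the 16 matches found in own-promoter sites, and 1 further match each of Rel, Nfkb2 and Nfkbia is not printed. A match in an intron of Bcl3 is added. They are the mm10 reference sequence, which is that of C57BL/6J and not of the CAST/EiJ copy, read from 5′ to 3′ on the strand of the gene. Capitals mark matches to the 10-base kB consensus on either strand, and 2 overlapping matches make 1 longer run in capitals at Rel and at Nfkb2.
Rel chr11:23771006-23771106 (minus strand): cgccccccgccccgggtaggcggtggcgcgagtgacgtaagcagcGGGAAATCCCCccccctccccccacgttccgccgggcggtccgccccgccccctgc
Relb chr7:19629408-19629580 (minus strand): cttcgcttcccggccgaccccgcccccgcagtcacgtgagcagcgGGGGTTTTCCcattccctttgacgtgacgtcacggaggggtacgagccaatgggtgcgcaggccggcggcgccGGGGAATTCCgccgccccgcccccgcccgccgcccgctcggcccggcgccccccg
Nfkb1 chr3:135691496-135691561 (minus strand): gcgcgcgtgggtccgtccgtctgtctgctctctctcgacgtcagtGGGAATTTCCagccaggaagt
Nfkb2 chr19:46304653-46304780 (plus strand): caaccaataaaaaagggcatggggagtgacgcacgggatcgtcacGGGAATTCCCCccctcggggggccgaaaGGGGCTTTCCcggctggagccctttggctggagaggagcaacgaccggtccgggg
Nfkbia chr12:55491912-55492011 (minus strand): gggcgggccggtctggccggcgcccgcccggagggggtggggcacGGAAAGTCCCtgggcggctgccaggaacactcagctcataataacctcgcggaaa
Nfkbie chr17:45555549-45555648 (plus strand): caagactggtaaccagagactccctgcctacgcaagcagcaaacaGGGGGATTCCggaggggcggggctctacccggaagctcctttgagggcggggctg
Bcl3 chr7:19822720-19822798 (minus strand): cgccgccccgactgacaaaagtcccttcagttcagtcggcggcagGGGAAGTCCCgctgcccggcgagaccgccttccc
Bcl3 intron chr7:19817585-19817684 (minus strand): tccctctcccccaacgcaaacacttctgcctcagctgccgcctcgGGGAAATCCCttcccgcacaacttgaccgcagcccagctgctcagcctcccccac
Tnfaip3 chr10:19015368-19015580 (minus strand): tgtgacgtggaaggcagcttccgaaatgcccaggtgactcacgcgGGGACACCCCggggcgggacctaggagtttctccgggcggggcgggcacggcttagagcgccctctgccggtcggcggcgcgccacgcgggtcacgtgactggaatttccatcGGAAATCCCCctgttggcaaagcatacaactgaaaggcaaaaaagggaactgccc

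Rela and Nfkbib had no match in any own-promoter site. Their strongest own-promoter sites are printed for comparison, up to 50 bases past the start, and hold no capitals for that reason.
Rela chr19:5637581-5637769 (plus strand): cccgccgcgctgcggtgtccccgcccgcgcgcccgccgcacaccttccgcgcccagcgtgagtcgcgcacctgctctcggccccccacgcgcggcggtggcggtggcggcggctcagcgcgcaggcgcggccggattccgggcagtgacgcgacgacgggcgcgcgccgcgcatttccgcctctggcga
Nfkbib chr7:28766590-28766780 (minus strand): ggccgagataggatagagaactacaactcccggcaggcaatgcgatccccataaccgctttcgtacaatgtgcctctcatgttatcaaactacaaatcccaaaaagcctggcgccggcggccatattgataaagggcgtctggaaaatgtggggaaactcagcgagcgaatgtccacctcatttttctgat

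All 10 members had a promoter peak in both libraries, where 51.1% of all protein-coding genes had one. A gene's promoter signal was its highest peak within 1000 bases of any of its starts. The median over the members of the mean signal was 8.57, against 6.42 over the 11220 genes with a promoter peak in both, whose quartiles were 3.21 and 10.8. Of the members, 6 lay above that median, 3 lay above the upper quartile and Nfkb1 lay below the lower one. The genes of the 3 IkB proteins, of Tnfaip3, of Relb and of Nfkb2 were the 6 high ones, with signals of 10.8 to 18.5 in replicate 1 and 5.39 to 9.56 in replicate 2. Rela, Bcl3, Rel and Nfkb1 were the low ones, with 2.68 to 4.87 in replicate 1 and 1.59 to 3.57 in replicate 2. The lowest value of the high genes in either library was thus above the highest value of the low genes, a split that was noticed in the data. It rests on the 1000-base window. An intronic Bcl3 site 1445 bases from a start lies outside that window and had 7.11 in replicate 1, above the 5.39 of Nfkb2 in replicate 2. Every member had the higher signal in replicate 1, and so had most genes, with a median log2 ratio of 0.70 over all genes with a promoter peak in both.

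**Figure D1:**
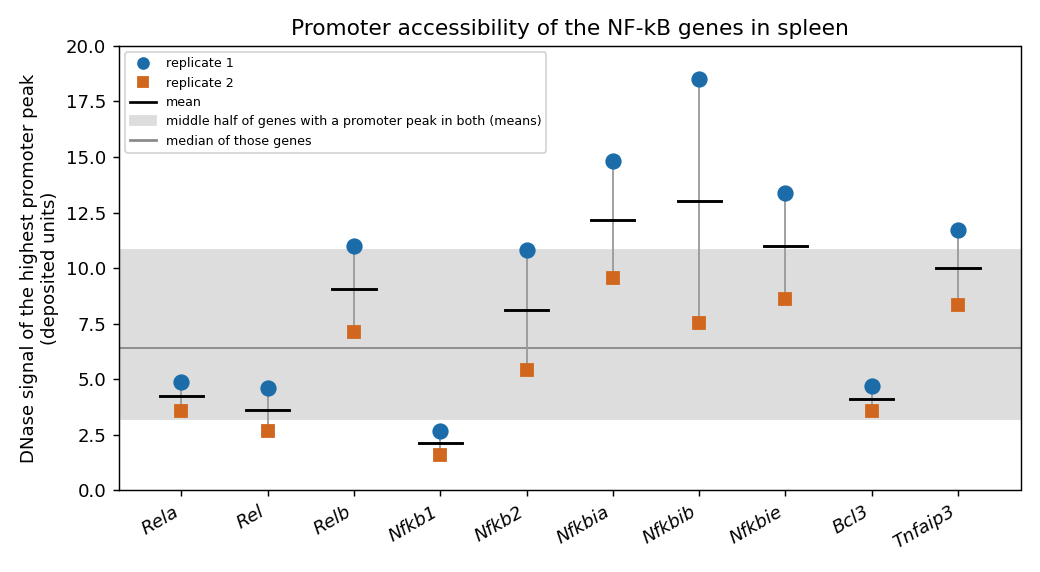
Deposited DNase signal of the highest promoter peak (vertical axis) of each of the 10 genes in replicate 1 (circles) and replicate 2 (squares), with a black bar at the mean, over a grey band from 3.21 to 10.8 between the quartiles of all genes with a promoter peak in both. The 6 high genes sit at 5.39 or more in both libraries, and Rela, Bcl3, Rel and Nfkb1 sit at 4.87 or less in both.

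Among the subunits with an activating domain, Relb, the partner of the processed Nfkb2 protein in the non-canonical pathway, had the most open promoter. Its gene lies at chr7:19606217-19629438 on the minus strand. The promoter signal of Relb was 11.0 in replicate 1 and 7.13 in replicate 2 (9.05 ± 2.71, SD, n = 2), at percentile 66.2 of the genes with a promoter peak in both. That peak lay in a 580-base site over internal starts, joined from 2 peaks in each library and centred 708 bases inside the gene. A weaker site at the 5′ end, chr7:19629441-19629640, had 6.38 and 3.90 and held both kB matches of the gene, 20 and 93 bases before the start.

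Rela encodes the main activating subunit of the canonical pathway, and its promoter was less open. The promoter signal of Rela (chr19:5637483-5648130, plus strand) was 4.87 in replicate 1 and 3.57 in replicate 2 (4.22 ± 0.917, SD, n = 2), at percentile 33.1. A neighbouring site over the 5′ end, chr19:5637301-5637560, had 4.19 and 2.54. Both sites were rich in G and C, at 77.7% and 71.5% of bases.

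Rel encodes the subunit best known from lymphocytes, and its promoter signal was of the same size as that of Rela. The signal of Rel (chr11:23736847-23770970, minus strand) was 4.58 and 2.68 (3.63 ± 1.35, SD, n = 2), at percentile 28.2. The 840-base site over its only annotated start was the widest promoter site of the 10 genes and held 10 footprints in each library. It was joined from 2 peaks in each library. Another promoter site in the intron had 1.09 in replicate 1 and was not called in the strict list of replicate 2, where the larger list gives it 0.659. Rela, Bcl3 and Rel differed from one another by less than the SD of Rel.

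The precursor gene Nfkb1 had the lowest promoter signal of the set. The signal of Nfkb1 (chr3:135584655-135691547, minus strand) was 2.68 in replicate 1 and 1.59 in replicate 2 (2.14 ± 0.766, SD, n = 2), at percentile 14.3. The site spanned the start, was 260 bases long and held 72.7% G and C. At 106893 bases Nfkb1 was the longest gene of the set, yet the sites called in both libraries were 3, all at annotated starts. These were the main start, a weak site with 0.974 and 0.683 in the intron behind it, and a site with 1.49 and 1.06 at the start of an incompletely annotated transcript 83267 bases inside the gene. When only the strongest 50% of the peaks of each library were kept, Nfkb1 was the member that lost its promoter call, leaving 9 of 10.

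Nfkb2, the other precursor gene, had a more open promoter than Nfkb1 in both libraries. The signal of Nfkb2 (chr19:46304320-46312385, plus strand) was 10.8 and 5.39 (8.10 ± 3.83, SD, n = 2), at percentile 61.2. The gene has 6 annotated starts, and another site, chr19:46305541-46305760 had 7.79 and 5.11. The site over the farthest 5′ start, chr19:46304241-46304400, was called in replicate 2 alone with 3.37. In replicate 1 the lowest deposited false discovery rate there was 3.74e-21, although the strict list holds no peak over it.

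The 3 genes of IkB proteins had the highest mean promoter signals of the set, although Tnfaip3 was above Nfkbib in replicate 2. Nfkbia encodes the alpha form of the inhibitor, which is rapidly destroyed and made again during the response. Its signal (chr12:55489410-55492647, minus strand) was 14.8 in replicate 1 and 9.56 in replicate 2 (12.2 ± 3.68, SD, n = 2), at percentile 80.9. That peak lay at chr12:55491861-55492100, just before an internal start, and the 5′ end itself had another site with 9.29 and 5.89. Both sites held a kB match.

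Nfkbie encodes the epsilon form of the inhibitor, known from B cells. The signal of Nfkbie (chr17:45555703-45563169, plus strand) was 13.4 and 8.62 (11.0 ± 3.36, SD, n = 2), at percentile 76. It came from 1 site of 180 bases that held all 3 annotated starts and was the only own-promoter site of the gene. Nfkbib encodes the beta form. The signal of Nfkbib (chr7:28758251-28767512, minus strand) was 18.5 in replicate 1 and 7.53 in replicate 2 (13.0 ± 7.79, SD, n = 2), at percentile 84. The 2 libraries differed more here than at any other member, by a ratio of 2.46, and Nfkbib had the highest signal of the 10 in replicate 1 but lay behind Nfkbia, Nfkbie and Tnfaip3 in replicate 2. The site also lies within 1000 bases of the start of Sirt2, so its signal cannot be assigned to Nfkbib alone.

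Bcl3 encodes a nuclear IkB-like protein that binds dimers of the processed Nfkb1 or Nfkb2 proteins on DNA. Its promoter signal (chr7:19808462-19822770, minus strand) was 4.67 and 3.55 (4.11 ± 0.792, SD, n = 2), at percentile 32.2, and came from an intronic site 6320 bases inside the gene near an internal start. The site at the 5′ end had 3.66 and 1.94. Tnfaip3 encodes a ubiquitin-editing enzyme that shuts the pathway off upstream of the kinases. The signal of Tnfaip3 (chr10:19000910-19015657, minus strand) was 11.7 and 8.33 (10.01 ± 2.38, SD, n = 2), at percentile 71.4. It came from 1 site of 240 bases over internal starts, centred 197 bases inside the gene. Among the 6 high genes, neighbours in the order of the means differed by less than their SDs. The order of the 9 genes other than Nfkbib was the same in each library.

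The widened gene bodies held 100 sites, of which 25 were own promoter, 27 other promoter and 48 distal. The numbers called in both libraries were 18, 17 and 16. The median member had 9 sites, against 5 for genes with a promoter peak in both. A distal site called in both libraries was present for 7 of 10 members, and 37.3% of all protein-coding genes had one. Rel, Nfkb1 and Tnfaip3 had none. All protein-coding genes include those without a promoter peak. The mean number of distal sites was 1.68 over all of them and 2.34 over genes with a promoter peak in both. The share with a shared distal site was not computed for the latter. Windows of gene-dense regions hold distal sites that lie nearer to other genes. When each site was given to the gene with the nearest start, 3 of 10 members kept a shared distal site, namely Nfkb2, Nfkbia and Bcl3. By that rule 23.8% of all protein-coding genes had one.

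**Figure D2:**
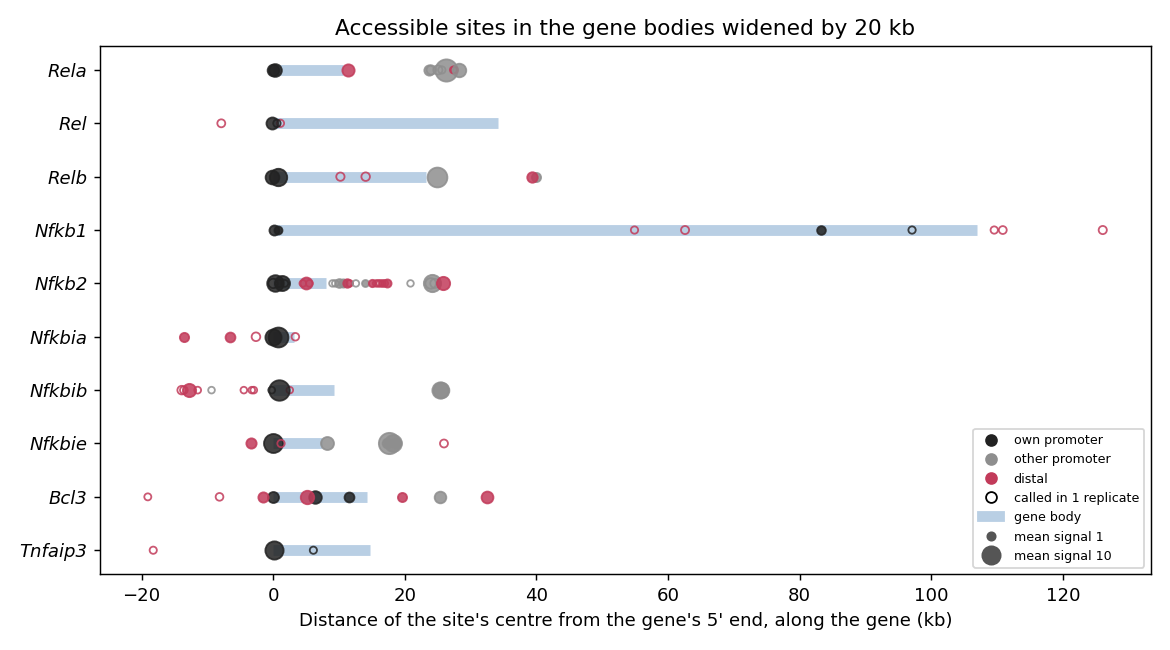
Sites in the gene bodies widened by 20 kb, by the distance of their centre from the gene's 5′ end in kb (horizontal axis), 1 row a gene, with blue bars for gene bodies, circle area growing with the mean signal and open circles for sites called in 1 library. The largest dark circles sit near the starts, with mean signals of shared own-promoter sites from 0.828 to 13.0, and the filled distal circles (red) run from 0.318 to 4.87.

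Shared distal sites were weaker than shared own-promoter sites, with a median signal of 2.56 against 5.62 in replicate 1 and of 1.88 against 3.73 in replicate 2. They were also poorer in G and C, at a median of 56.8% of bases against 67.4%. The strongest was at Bcl3, at chr7:19817441-19817740 in an intron, with 7.11 in replicate 1 and 2.64 in replicate 2 (4.87 ± 3.16, SD, n = 2). In each library that intronic site was more open than the site at the 5′ end of the gene. The other shared distal sites of Bcl3 with the highest means were chr7:19790161-19790340, with 3.50 and 3.46, and chr7:19824241-19824480, which lies 1590 bases before the 5′ end and had 2.55 and 1.96. The former lies beyond the 3′ end of Bcl3 and nearest to a start of Cblc.

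At Rela the shared distal site was chr19:5648821-5649000, just past the 3′ end of the gene, with 5.07 and 2.52, above the Rela promoter in replicate 1 and below it in replicate 2. At Nfkb2 the 3 highest were chr19:46330061-46330240 with 4.52 and 4.93, chr19:46309161-46309360 in an exon of the gene with 3.32 and 3.82, and chr19:46315401-46315660 with 1.56 and 0.813. The first and last of these lie outside the gene and nearer to starts of other genes. Nfkb2 also had the most sites, 28, many of them small sites near the annotated starts of the neighbouring gene Psd or between them, with signals down to 0.277 in replicate 1 and 0.260 in replicate 2. At Nfkbia, sites lay 6613 and 13487 bases before the 5′ end, with 2.35 and 1.66 at the nearer and 1.38 and 1.81 at the farther. Another site, chr12:55495161-55495360, had 2.44 in replicate 1 and was not in the strict list of replicate 2.

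At Nfkbib the highest was chr7:28780141-28780320, which lies 12718 bases before the 5′ end, with 5.45 and 3.90. A pair of weaker ones beside it were called in replicate 1 alone, with 2.40 and 1.34. At Nfkbie the shared distal site lay 3423 bases before the 5′ end and had 2.57 and 2.00. Of its others, one had 1.67 in replicate 2 alone and one had 1.06 in replicate 1 alone. At Relb the shared one was chr7:19589981-19590160, 39368 bases from the 5′ end and beyond the 3′ end of the gene, with 3.12 and 1.73. Intronic sites of Relb had 2.30 and 2.04 in replicate 1 alone.

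For the members without a shared distal site, the distal calls of replicate 1 reached at most 1.89, where the median of all its peaks was 1.49. Rel had 1.64 at chr11:23778761-23778940 and 0.965 in its intron. Nfkb1 had 1.89 at chr3:135565401-135565580, 1.80 in an intron and 1.57 past the 3′ end. Tnfaip3 had 0.890 at chr10:19033793-19033965. With the larger peak lists 9 of 10 members had a shared distal site, all but Tnfaip3.

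Of the 100 sites, 51 were called in both libraries, 32 in replicate 1 alone and 17 in replicate 2 alone. Of all 50826 sites of the genome, 49.7% were called in both, 44.3% in replicate 1 alone and 6.01% in replicate 2 alone. Deposited false discovery rates were read where a library lacked the call. A low rate alone did not make a call, as at the Nfkb2 site with 3.74e-21 in replicate 1. Of the 32 sites of replicate 1 alone, 18 had a base under 0.05 in replicate 2 and 6 had a base at or under 0.001. Of the 17 sites of replicate 2 alone, 6 had a base under 0.05 in replicate 1 and 2 had one at or under 0.001. Of these 17 sites, 9 lay in the window of Nfkb2 and 7 in that of Nfkbib, most of them with signals under 0.6.

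In the windows of Rela, Relb and Nfkbie, a promoter site of a neighbouring gene was more open in both libraries than the member's own. Sipa1 in the window of Rela had 19.8 and 11.1, and Pcnx3 there had 6.89 and 2.98. Hsp90ab1 in the window of Nfkbie had 17.2 and 11.0, and Slc35b2 had 5.01 and 3.90. Clasrp next to Relb had 14.4 and 9.72, Fbxl15 next to Nfkb2 had 9.29 and 8.49, a site at the starts of Mrps12 and Sars2 next to Nfkbib had 10.4 and 3.88, and Cblc next to Bcl3 had 4.05 and 2.57. Rel, Nfkb1, Nfkbia and Tnfaip3 had no site of another gene's promoter in their windows.

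The kB consensus, the sequence that NF-kB dimers bind, was found in an own-promoter site of 8 of 10 members. Of the genes with a promoter peak in both libraries, 18.2% had such a match. The members had more own-promoter DNA to search, a median of 590 bases against 400, and per length they held 2.44 matches per kb against 0.516 in the own-promoter sites of all protein-coding genes. In windows of 300 bases at the 5′ ends, which are of 1 length for every gene, 6 of 10 members and 9.11% of all promoters held a match. With a looser consensus the members' count was again 6 of 10, against 28.6% of all promoters. NF-kB regulation of several of these genes is textbook knowledge, so the genes are no unselected sample for this motif.

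The 16 matches lay at 14 separate places, since those at Rel and Nfkb2 overlap. Around Rel, 2 overlapping matches lay 86 and 87 bases before the start and another lay 566 bases before it. Nfkb1 had 1 match, 34 bases after the start. Nfkb2 had 3 in its strongest site, 13 to 41 bases before an internal start, and 1 at another site, 14 bases after a later start. Nfkbia had 1 in each of its sites, 152 and 25 bases before the nearest starts. Nfkbie had 1, 104 bases before the start, and Bcl3 had 1, 21 bases after the 5′ start. Tnfaip3 had 2, 8 and 121 bases before an internal start and inside the gene. The matches of Relb and Bcl3 lay outside the strongest promoter site of those genes.

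Footprints are short stretches inside open DNA that are cut less than their surroundings. A match was counted in a footprint where it touched one widened by 5 bases on each side. Of the 16 matches, 12 touched a footprint of replicate 1 and 9 touched one of replicate 2, and these 9 did so in both. Over the own-promoter sites of all genes, 41.8% of kB matches touched a footprint of replicate 1 and 35.0% one of replicate 2, while 43.2% and 36.8% of all 10-base windows did. Of the members, 7 of 10 had a match touching footprints of both libraries, and 6.19% of the genes with a promoter peak in both had one. With footprints not widened, 6 of 10 members had one, since Nfkb2 was lost, and the share of all genes was not computed. Both matches of Relb touched footprints of replicate 1 only. In Tnfaip3 the match 121 bases before the internal start touched a footprint in both libraries and the one 8 bases before it touched none.

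**Figure D3:**
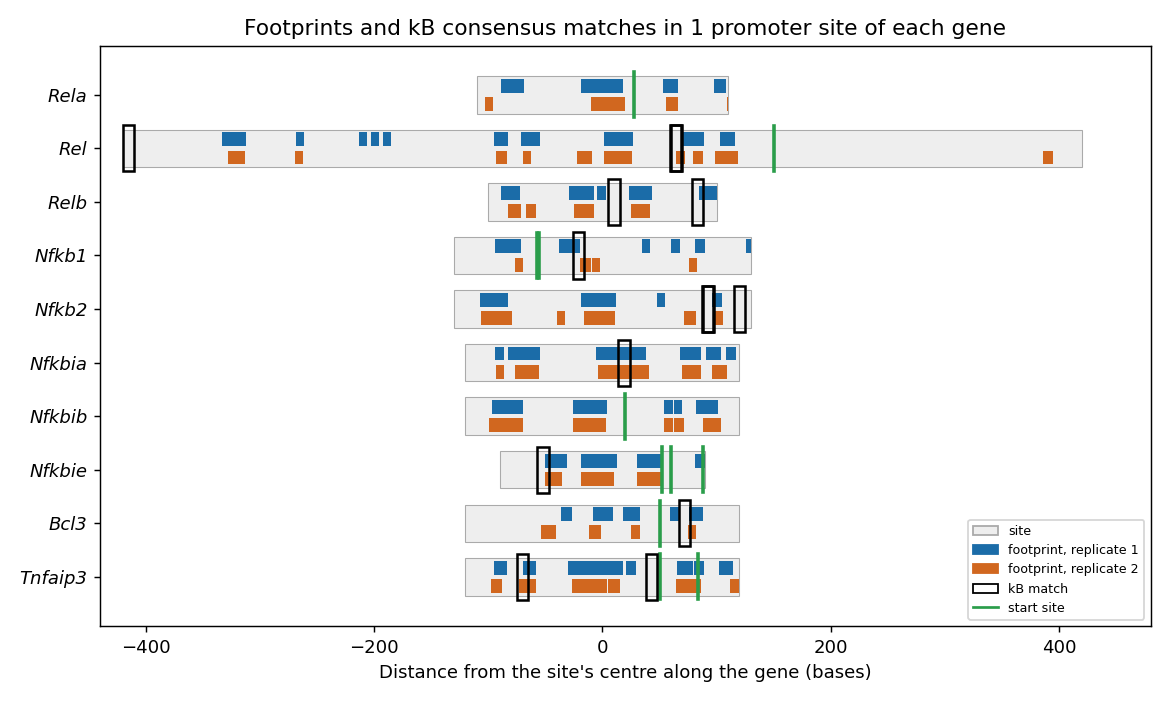
One promoter site of each gene, drawn by distance from its centre in bases along the gene (horizontal axis), with footprints of replicate 1 (blue, upper) and replicate 2 (orange, lower), kB matches (black frames) and start sites (green). The footprint over the Nfkbia match is 44 bases wide in replicate 1 and 45 in replicate 2, and no frame is drawn at Rela and Nfkbib.

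The widest footprint on a match was that of Nfkbia, with 44 bases in replicate 1 and 45 in replicate 2. At Nfkbie the widths were 19 and 15, at Nfkb1 18 and 10, and at Rel 20 and 8. Of the matches drawn, only that of Nfkbia lay wholly inside a footprint of each library. The footprints at Nfkbie, Nfkb1, Rel, Bcl3 and Tnfaip3 covered only part of a match. At Nfkb1 the footprints of the 2 libraries did not overlap each other. A footprint does not say which protein made it, and a match of letters is not a measured binding site. Outside the promoters, distal sites held 6 matches, of which 1 touched footprints of both libraries. That match lay in the strong intronic site of Bcl3 printed above, in footprints of 21 and 11 bases. Promoter sites of other genes in the windows held 6 matches, none in footprints of both.

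Other motifs were counted in the same 300-base windows. The GC box GGGCGG was in those of 7 of 10 members and of 43.1% of all promoters, and it can overlap the edge of a kB match in G-rich DNA. The cAMP response element core TGACGT was in 3 of 10 and 8.66%. The ETS core CCGGAA was in 2 of 10 and 17.5%, the PU.1 core GAGGAA in 2 of 10 and 27.7%, and the CCAAT box in 1 of 10 and 39.0%. None of the 10 windows held AGATAA, the core that GATA factors bind, which was in 10.2% of all promoters. None held the IRF element, the YY1 core AAGATGGC or the CTCF consensus, which were in 3.55%, 2.92% and 2.54%. All motifs were searched on both strands.

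The peaks of the 10 windows held 253 footprints in replicate 1 and 189 in replicate 2, or 15.1 and 13.5 per kb. All peaks held 14.6 and 15.3 per kb. The share of peaks with a footprint was 82.6% and 83.1% in the windows and 89.5% and 88.4% over all peaks. The small sites around Nfkb2 lowered that share, since 60% and 59.1% of the peaks there had a footprint. The single Tnfaip3 peak of replicate 2 held 6 footprints over 40% of its bases.

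At the 51 sites called in both libraries, 46 had the higher signal in replicate 1, a share of 90.2% that lies near the 88.6% of all shared sites. The median log2 ratio of replicate 1 to replicate 2 was 0.58 over all 25244 shared sites, and the members' sites are given relative to it. Their median was 0.03 on the log2 scale, with 0.07 at own promoters, 0.00 at other promoters and -0.21 at distal sites. These medians are not relative to sites of the same class. Of all shared promoter sites 95.5% had the higher signal in replicate 1, against 78.8% of distal ones. The quartiles of all shared sites were -0.31 and 0.28. The highest relative ratio of an own promoter was 0.72, at Nfkbib, and the lowest was -0.18, at the intronic Bcl3 start. Of the 16 distal sites, 11 had the higher signal in replicate 1, or 68.8%, where 78.8% of all shared distal sites did. They ranged from -0.97 at the farther upstream site of Nfkbia to 0.85 at the Bcl3 intron. With 1 library for each material, none of these differences has a replicate check. Replicate 1 was made from 3 males and replicate 2 from 1 male, and the number of animals and the library cannot be told apart.

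**Figure D4:**
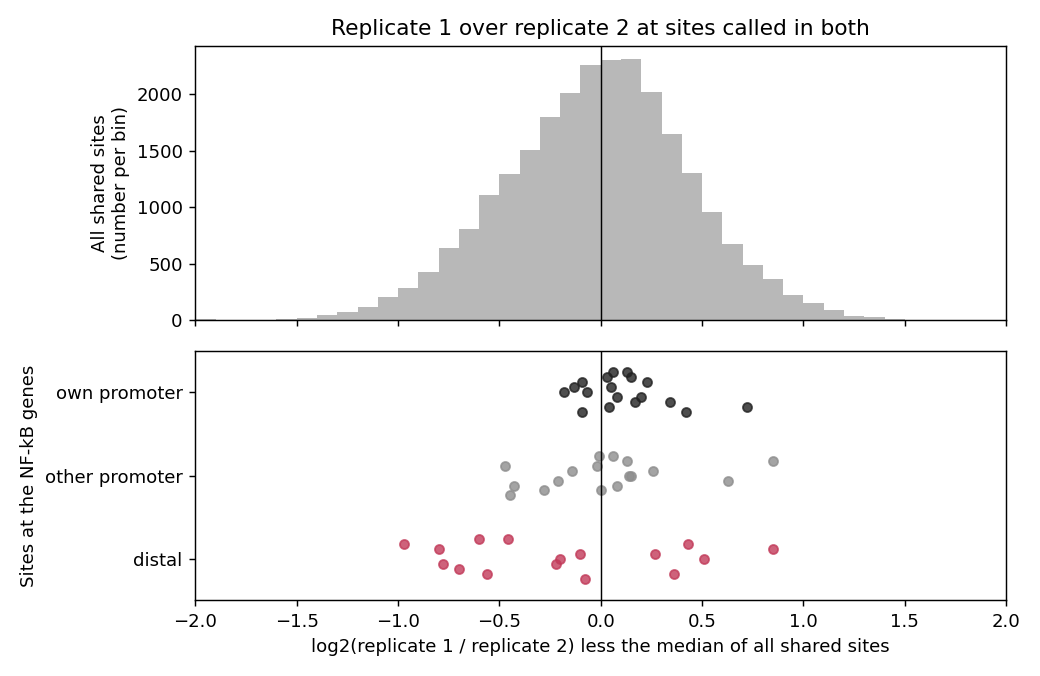
Upper panel, number of shared sites per bin of the log2 ratio of replicate 1 to replicate 2 less the median of all 25244 shared sites. Lower panel, the 51 shared sites at the 10 genes as points by class, with own promoters between -0.18 and 0.72 and distal sites between -0.97 and 0.85.

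The other genes of the pathway act upstream of the subunits, on their inhibitors or beside them. All 33 listed kinases, scaffolds, adaptors, ligases, deubiquitinases and further IkB genes had a promoter peak in both libraries, where 51.1% of all protein-coding genes had one. Their median mean signal was 7.73. The highest were Btrc, which encodes the ligase subunit that recognises phosphorylated IkB proteins, with 26.8 and 14.6, the adaptor gene Traf5 with 25.2 and 15.5, and Sharpin, a component of the linear ubiquitin ligase, with 24.9 and 15.2. All 3 exceeded each of the 10 members in both libraries. Of the 33 genes, 11 held a kB match in an own-promoter site and 4 held one touching footprints of both libraries, which is 33.3% and 12.1% of them. The shares over all genes with a promoter peak in both were 18.2% and 6.19%.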

How the data were processed

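DNase-seq of 2 spleen libraries was used. Alignments were to mm10, per the labels. For the aligner and for the peak and footprint callers, names and settings were not given in the sources used here. In the peak lists the authors deposited is 1 signal value per peak on an unstated scale, so ratios between libraries are read relative to all shared sites. Deposited false discovery rates (adjusted p-values) cover runs of bases under 0.05. The authors' footprint lists hold positions with 1 constant p-value of 0.01, so footprints were not ranked. Starts came from GENCODE M21 on 21 chromosomes, and sequences from the RefSeq copy of the same build. The kB consensus and the other motifs were searched with Python 3.11.15. Both replicates belong to 1 group, so no test was made and no p-value computed. Mean ± SD is over the 2 libraries, and their spread may be technical. The members, lists and motifs were chosen with earlier results of these data known. Named were all members, up to 3 distal sites of each by mean signal with sites called in both first, the 3 pathway genes with the highest mean signal (none lacked a peak), and genes whose starts lie in the windows. Markers with no promoter peak in either library were also named. The interval and motif steps were checked on simulated data. The alternatives were larger or stricter peak lists, other promoter windows, flanks, start sets and overlaps, a looser consensus and each library left out.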

Additional observations from a re-analysis of the deposited data

How the results depend on the processing

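Of 76 values under other settings, 67 were counted as stable. The promoter signal was judged by the spread of the libraries and the log2 ratio only by its sign. All other values had to stay within 1.5 times the value reported. Counts of sites followed the window. With a flank of 10 kb there were 10 sites at other promoters in place of 27, and with 50 kb there were 69, with 79 distal sites in place of 48. Giving each site to the nearest start left 0 other-promoter sites, by construction, 22 distal sites and 3 of 10 members with a shared distal site in place of 7. Keeping the strongest 50% of peaks left 21 distal sites. The median log2 ratio of the members' shared sites relative to all shared sites went from 0.03 to -0.01 with the same number of strongest peaks in each library, and both are near 0. With 1 library left out, distal sites numbered 28 to 36, own-promoter sites 22 and other-promoter sites 19 to 25. Members with a distal site numbered 7 to 10, the median promoter signal was 6.26 to 10.9, footprints numbered 189 to 253, and kB matches in footprints numbered 9 to 12. Promoter calls were 10 of 10 members and 33 of 33 pathway genes without either library, which calls in both libraries make certain beforehand. Own-promoter sites could not change with the flank either. The median signals of single libraries were set against a spread taken from those same values, so their stability shows nothing. The looser kB consensus gave 17 matches in footprints in place of 12, and footprints that were not widened gave 10. No paired analysis was possible because there is 1 group. The read depth behind each peak is unknown, so which low sites were missed for depth cannot be read from these files.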
